A study of Mus musculus with 6 samples.

Results

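In mouse helper T lymphocytes, isolated as CD4+ T cells, the NF-kB system was described through 10 genes: the subunits Nfkb1, Nfkb2, Rel and Relb, the inhibitors Nfkbia, Nfkbib and Nfkbie, the feedback genes Tnfaip3 and Traf1, and the nuclear co-regulator Bcl3. They were taken by symbol from a deposited table of read counts with 13177 RefSeq transcript rows, where each of the 10 genes had 1 row. A total of 6 libraries fell into 2 groups of 3, control cells labelled as 0 h and cells collected 8 h after a synthetic miR-155 oligonucleotide was transferred into them. Both groups carry the oligonucleotide in their treatment label, and no library was labelled as 8 h without it, so time and exposure cannot be told apart. Mouse strain, age and sex were not given in the sources used here. The cells were isolated with a magnetic bead kit and their purity was checked by flow cytometry, per the labels. The description of the 8 h samples names CD5+ T cells, while their source label names CD4+ T cells. Whether the replicates are different animals or cultures is not given in the labels, so p-values measure only the spread between these libraries, which may be technical.

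NF-kB factors are dimers of subunits that share a DNA-binding and dimerisation region. In resting cells, inhibitors of the IkB family hold them in the cytoplasm. Signals from the T cell receptor, its co-receptors and TNF family receptors activate the IKK kinases, which mark the inhibitors for degradation and free the dimers to enter the nucleus. Genes for inhibitors, for some subunits and for the deubiquitinase A20 (Tnfaip3) are themselves NF-kB targets, which gives the system its feedback.

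Because the cells received a miR-155 oligonucleotide, the mature strands of the mouse gene are shown first, from RefSeq (GRCm38.p6, chromosome 16, plus strand, chr16:84714143-84714165 and chr16:84714182-84714202), with the seed, bases 2 to 8, in capitals. The sequence of the synthetic oligonucleotide itself was not given in the labels.

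mmu-miR-155-5p: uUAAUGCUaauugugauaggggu

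mmu-miR-155-3p: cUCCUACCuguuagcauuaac

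For each gene the longest 3' UTR in GENCODE M21 (GRCm38) was searched on its own strand for matches to the seed of the 5p strand. A match was AGCATTA (facing bases 2 to 8) or the last 6 of those letters followed by an A, and AGCATTAA holds both forms. None of the 10 genes held one, and 10.9% of the 7941 tested genes with a 3' UTR did. Rela, which encodes the p65 subunit and lies outside the 10 genes, held 1 match of 8 bases at chr19:5647587-5647594, shown here with 10 bases on either side and the match in capitals. Rela was singled out after its values were seen.

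Rela 3' UTR: ctttcgcaggAGCATTAAcctcctggag

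The NF-kB consensus motif of 10 bases, known as the kB motif, was then searched on both strands in windows of 250 bases before to 50 bases after each transcript start (RefSeq, GRCm38.p6). The table held 11 windows for 8 of the 10 genes, and 8 windows from 6 genes had at least 1 match. Of all 32851 windows in the table, 8.46% had one. A match is a description of the letters and not a bound site. Stretches around the matches are shown for the 6 genes, with matched bases in capitals, because these 6 genes share the motif. Their counts, given further on, are not read against it. Overlapping matches in Nfkb2 and Rel run together.

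Nfkb2 (chr19:46304673-46304760, plus strand, matches starting 39, 38 and 11 bases before the start): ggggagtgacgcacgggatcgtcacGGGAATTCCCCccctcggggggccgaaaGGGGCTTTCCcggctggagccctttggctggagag

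Rel (chr11:23771026-23771086, minus strand, 92 and 91 bases before): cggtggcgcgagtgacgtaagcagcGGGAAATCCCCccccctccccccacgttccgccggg

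Nfkbia (chr12:55492642-55492701, minus strand, 29 bases before): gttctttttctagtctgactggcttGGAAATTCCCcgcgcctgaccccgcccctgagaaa

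Nfkbie (chr17:45555569-45555628, plus strand, 106 bases before): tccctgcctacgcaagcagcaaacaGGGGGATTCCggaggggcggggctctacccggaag

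Tnfaip3 (chr10:19015388-19015447, minus strand, 12 bases before): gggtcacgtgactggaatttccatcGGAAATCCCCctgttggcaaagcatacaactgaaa

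Bcl3 (chr7:19822719-19822778, minus strand, beginning 3 bases into the transcript): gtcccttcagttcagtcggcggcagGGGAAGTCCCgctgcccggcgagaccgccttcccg

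The other 2 windows with matches belong to further starts of Nfkb2, which overlap and share 1 match. Tnfaip3 had a second match 125 bases before the same start and none at its other start. In the windows of Nfkbib and Traf1 these letters were not found. Nfkb1 and Relb are named without a window.

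**Figure D1:**
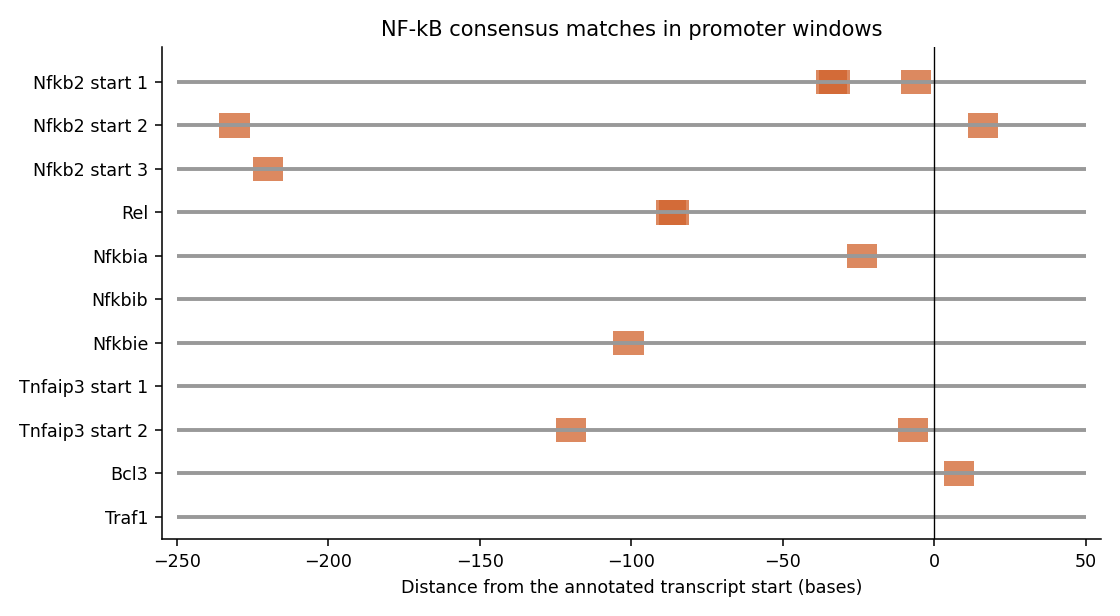
Position of NF-kB consensus matches (orange boxes, 10 bases each, darker where they overlap) in bases from the annotated transcript start, 1 line per window of 300 bases, starts of one gene numbered by coordinate. Matches lie in 8 of the 11 windows, and the windows of Nfkbib, Traf1 and 1 start of Tnfaip3 have none.

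Library totals ranged from 4564010 to 13675127 counts, and the 100 most abundant rows held 57.7% to 68.6% of a library. Actb had 1 to 5 counts and Gapdh 1 to 11 in any library, so whether a row holds the ordinary count of its gene is uncertain for every value given here. Of 13 T cell markers 12 were matched. Their summed level was 3398 to 19584 CPM in controls and 5463 to 12471 CPM at 8 h. CPM are counts relative to the library total, scaled by TMM factors. Of the 12 markers 9 had enough counts to be tested. Zap70 (2 to 17 counts per library), Cd247 (3 to 16) and Il7r (2 to 16) did not, so the sum does not speak for the whole list. Cd4, the marker that defines the labelled cell type, had 5 to 10 counts in every library. In CPM this was 0.912 to 1.19 in controls and 0.678 to 0.939 at 8 h, below the summed CD8 T cell markers given next. Summed levels over the marker lists of other cells ran in controls and at 8 h, in CPM, from 42.6 to 138 and 47.1 to 107 for B cells, 46.7 to 219.5 and 45.6 to 58.3 for monocytes, macrophages and dendritic cells, 11.0 to 50.9 and 5.65 to 31.0 for neutrophils, 7.56 to 38.4 and 11.4 to 60.7 for CD8 T cells and 21.3 to 131 and 2.75 to 11.1 for erythroid cells and platelets. Some of these sums rest on few genes. Of the 131 CPM for erythroid cells and platelets in control replicate 3, Pf4 gave 76.5 CPM. Pf4 had 0 counts in control replicates 1 and 2. That list had 6 genes matched and 3 tested. Of the 219.5 CPM for monocytes, macrophages and dendritic cells in control replicate 1, Itgax gave 95.6 and Adgre1 59.2 CPM. In bulk libraries, fewer cells of a type and less RNA per cell cannot be told apart.

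No NF-kB gene passed the test between 8 h and control. Of the 10 genes, 8 had enough counts to be tested and 0 were called by edgeR's quasi-likelihood test at an adjusted p under 0.05, where 0% of all 8308 tested rows were called. At an unadjusted p under 0.05 edgeR gave 0 of the 8, against 8.53% of all tested rows. DESeq2's Wald test, an alternative, called 0 of the 8, against 6.06% of the 6588 rows to which it gave an adjusted p. DESeq2 gave 3 of them (Bcl3, Nfkbie and Nfkbib) an unadjusted p under 0.05, against 1371 of all 8308 tested rows, some of which had no p. It gave Nfkb1 no p, so its 2 counts of NF-kB genes rest on the others of the 8. The fitted log2 fold change was below 0 for 7 of the 8 genes and above 0 for Nfkbib, whereas 48.7% of all tested rows had one below 0. The median was -1.62 over the 8 genes and 0.06 over all tested rows. Without control replicate 3 the split was 4 below and 4 above 0, with a median of -0.12, and 43.7% of all rows tested then lay below 0, with a median of 0.32. The 7 negative signs thus included 3 that turned without control replicate 3. Relb, also among the 7, turned without control replicate 2.

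**Figure D2:**
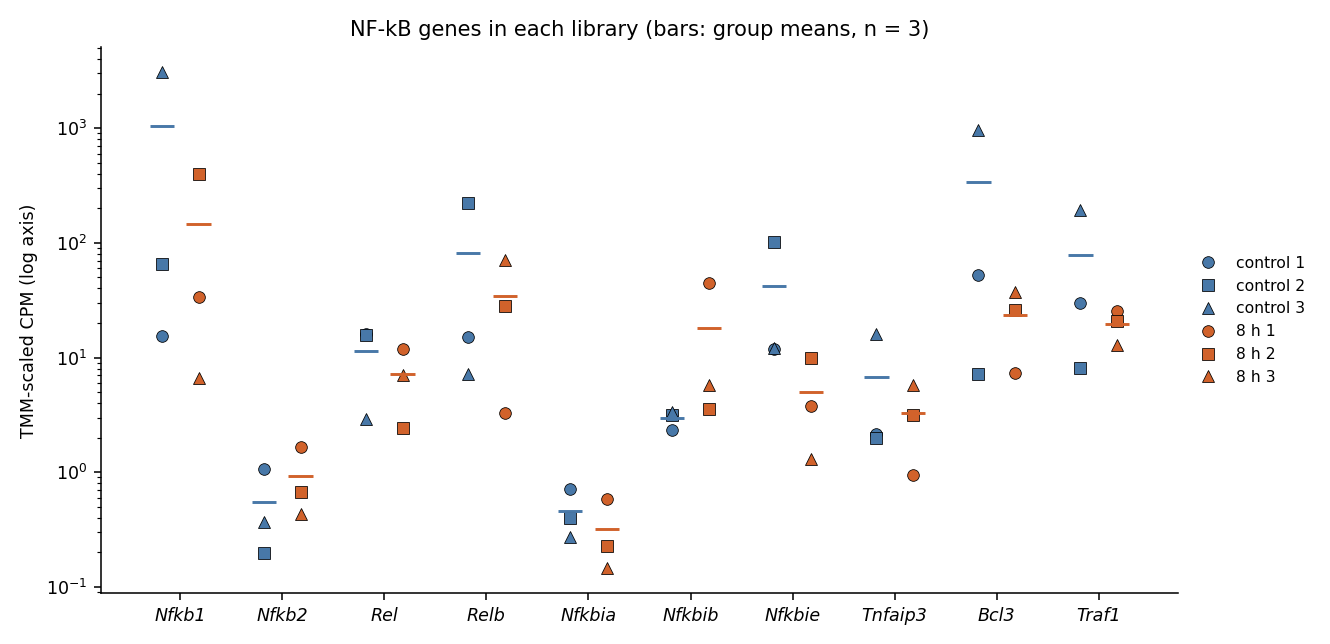
TMM-scaled CPM on a log axis for the 10 NF-kB genes, 1 point per library (blue control, orange 8 h, shape by replicate number) with bars at the group means. Control replicate 3 is the highest of the 6 libraries for Nfkb1, Tnfaip3, Bcl3 and Traf1, and the groups are apart only for Nfkbib and Nfkbie.

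Among the subunits, Nfkb1 (chromosome 3, 135584655 to 135691969; gene positions here and further on are those of RefSeq, GRCm38.p6), which encodes p105 and its processed form p50, had the widest spread. Its counts were 87, 328 and 33665 in control replicates 1 to 3 and 289, 5295 and 46 in 8 h replicates 1 to 3. Scaled to depth these were 15.6, 65.2 and 3071 CPM in controls and 33.9, 399 and 6.67 CPM at 8 h. Control replicate 3 stood far above the other controls and 8 h replicate 2 far above the other 8 h libraries, and the groups overlapped. Group means were 1050.5 ± 1749.7 CPM and 146 ± 219 CPM (SD, n = 3 each). Fitted by edgeR, Nfkb1 differed by -2.84 ± 2.24 in log2 units (SE; adjusted p = 0.744). It was 1.90 without control replicate 3 and -5.73 without 8 h replicate 2, so a single library set its direction.

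Relb (chromosome 7, 19606217 to 19629438), the subunit that pairs with p52 in the non-canonical arm, had 84, 1126 and 78 counts in the control libraries against 28, 374 and 492 at 8 h. In CPM these were 15, 224 and 7.11 in controls and 3.29, 28.2 and 71.3 at 8 h. Here control replicate 2 was the highest library, not control replicate 3, and the groups overlapped. The log2 fold change of Relb was -1.26 ± 1.77 (SE; edgeR adjusted p = 0.874), and 1.64 without control replicate 2.

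Rel (chromosome 11, 23736847 to 23770969) encodes c-Rel, a subunit prominent in lymphocytes and needed for Il2 expression in T cells. It was among the steadiest of the tested rows. Its counts were 89, 79 and 32 in controls and 102, 32 and 49 at 8 h, or 15.9, 15.7 and 2.92 CPM against 12.0, 2.41 and 7.10 CPM. The groups overlapped, with 1 low control and 1 low 8 h library. The mean of Rel was 11.5 ± 7.44 CPM among controls against 7.16 ± 4.78 CPM (SD, n = 3 each), a log2 fold change of -0.68 ± 1.66 (SE; edgeR adjusted p = 0.936). The highest library exceeded the lowest 6.60 times, and 7.59% of the 7157 tested rows without a zero had a smaller ratio. The median ratio was 30.2 over those rows and 46.0 over the 8 tested NF-kB genes, with Nfkb1 at 461.

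Rela was steadier still. It had 1120, 1885 and 3527 counts in the control libraries against 2966, 1947 and 1256 at 8 h, a ratio of 2.56 between the highest and lowest library in CPM, and 0.307% of the rows had a smaller one. Its log2 fold change was -0.41 ± 1.97 (SE; edgeR adjusted p = 0.971).

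**Figure D3:**
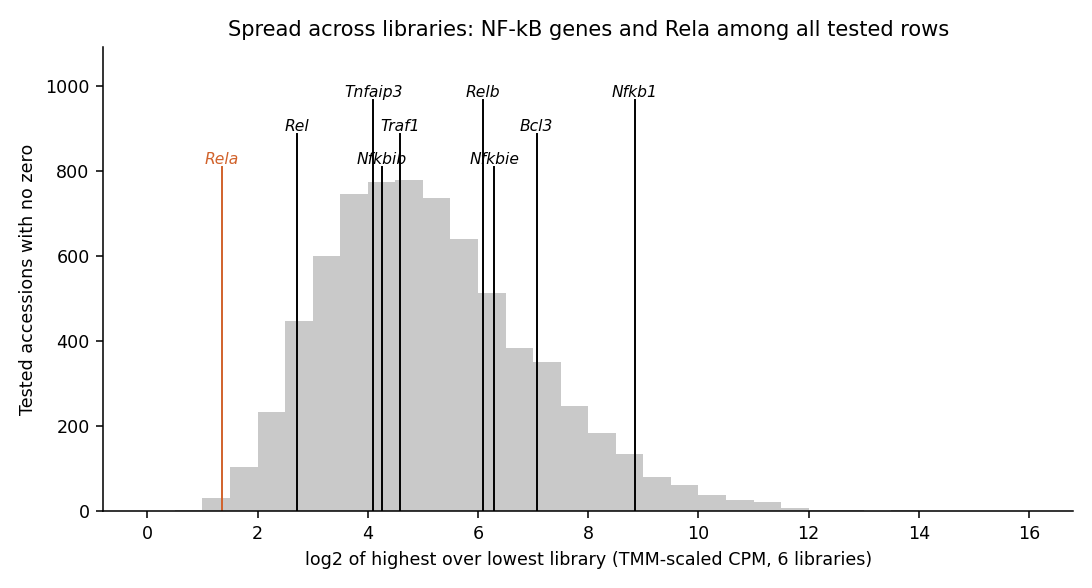
Histogram of tested rows by the log2 ratio of the highest to the lowest of the 6 libraries, with lines for the 8 tested NF-kB genes (black) and Rela (orange). Rela and Rel lie at the narrow end and Nfkb1, with a ratio of 461, at the wide end.

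Nfkb2 (chromosome 19, 46300994 to 46312400), which encodes p100 and p52, had 6, 1 and 4 counts in the control libraries against 14, 9 and 3 at 8 h and was not tested. Summed by group these are 11 counts (exact Poisson 95% interval 5.49 to 19.7) and 26 counts (17.0 to 38.1), intervals that cover counting error only. The values of the groups overlapped.

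Of the inhibitors, Nfkbie and Nfkbib had groups that stood apart on the TMM scale, Nfkbie lower and Nfkbib higher at 8 h. Groups apart in the lower direction were seen for 1 of the 8 tested genes, against 5.08% of all tested rows, and in the higher direction for 1 of the 8, against 5.72%. Nfkbie (chromosome 17, 45555700 to 45563169) encodes IkB epsilon, an inhibitor of c-Rel and p65 dimers. It had 66, 516 and 132 counts in the control libraries against 32, 132 and 9 at 8 h. In CPM the controls stood at 11.8, 103 and 12.0 and the 8 h libraries at 3.76, 9.94 and 1.30. The lowest control and the highest 8 h library were close, and control replicate 2 was far above the rest. Means were 42.1 ± 52.4 CPM and 5.0 ± 4.45 CPM (SD, n = 3 each). The fitted log2 difference was -3.07 ± 1.83 (SE). The difference did not pass (edgeR adjusted p = 0.643, DESeq2 adjusted p = 0.130). Leaving out control replicate 2 gave -1.23.

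Nfkbib (chromosome 7, 28758251 to 28766644) encodes IkB beta, which is degraded more slowly than IkB alpha after many stimuli. It had 13, 16 and 37 counts in the control libraries against 379, 47 and 40 at 8 h. The controls lay close together at 2.32, 3.18 and 3.37 CPM, and the 8 h libraries stood at 44.5, 3.54 and 5.80 CPM. The groups touched: on library sizes without TMM scaling they overlapped. The log2 fold change of Nfkbib was 2.59 ± 1.77 (SE; edgeR adjusted p = 0.685, DESeq2 adjusted p = 0.209), and 0.66 without 8 h replicate 1.

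Nfkbia (chromosome 12, 55489409 to 55492647) encodes IkB alpha, the inhibitor that is degraded and resynthesised fastest. It had 4, 2 and 3 counts in the control libraries against 5, 3 and 1 at 8 h and was not tested. Both group sums were 9 counts (exact Poisson 95% interval 4.12 to 17.1). These intervals cover counting error only.

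Bcl3 (chromosome 7, 19808462 to 19822824) encodes an IkB-like protein that acts in the nucleus with p50 and p52 dimers. Its counts were 296, 36 and 10519 in controls and 63, 348 and 259 at 8 h. These were 52.9, 7.16 and 959 CPM in controls and 7.40, 26.2 and 37.5 CPM at 8 h. Control replicates 1 and 3 exceeded every 8 h library. Control replicate 2 lay below all of them on the TMM scale, though close to 8 h replicate 1. On library sizes without TMM scaling, control replicate 2 lay above 8 h replicate 1. Bcl3 had the lowest adjusted p of the 8 genes, with a log2 fold change of -3.84 ± 2.14 (SE; edgeR adjusted p = 0.621, DESeq2 adjusted p = 0.113). Without control replicate 3 it was -0.32.

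Traf1 (chromosome 2, 34941750 to 34961812), an adaptor of TNF family receptors, had 166, 41 and 2138 counts in the control libraries against 216, 277 and 89 at 8 h. In CPM the controls were spread over 29.7, 8.15 and 195, while the 8 h libraries lay within 25.4, 20.9 and 12.9. The log2 fold change of Traf1 was -1.98 ± 1.79 (SE; edgeR adjusted p = 0.777), and 0.08 without control replicate 3. Tnfaip3 (chromosome 10, 19000910 to 19015410), the ubiquitin-editing enzyme A20 that limits NF-kB signalling, had 12, 10 and 177 counts in the control libraries against 8, 42 and 40 at 8 h. These were 2.15, 1.99 and 16.1 CPM against 0.939, 3.16 and 5.80 CPM. The 2 lower controls lay inside the range of the 8 h libraries. Its log2 fold change was -1.04 ± 1.56 (SE; edgeR adjusted p = 0.885), and 0.69 without control replicate 3.

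**Figure D4:**
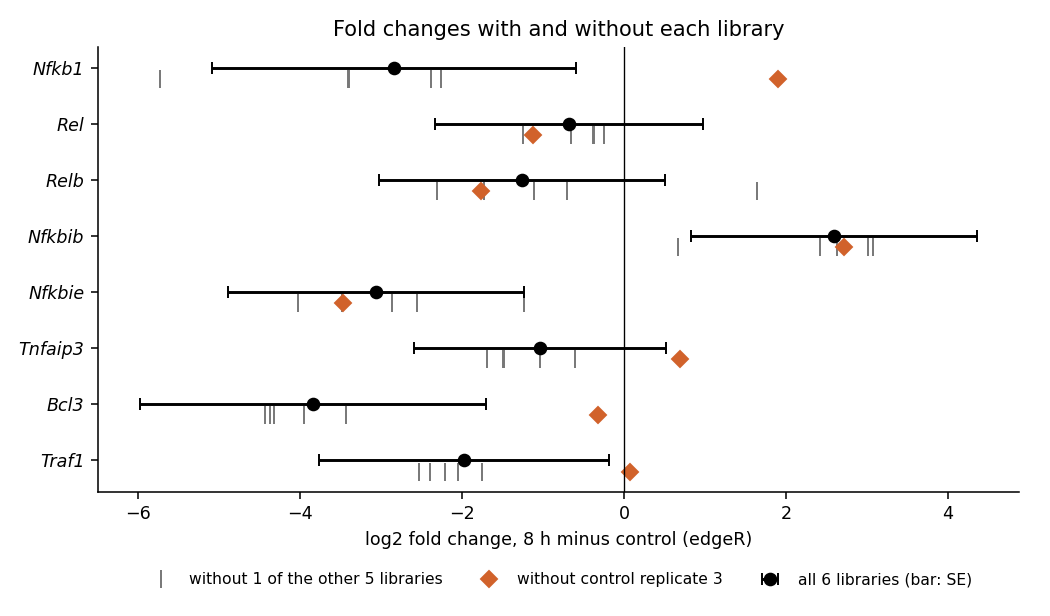
edgeR log2 fold change (8 h minus control) of the 8 tested NF-kB genes, black with its SE for all 6 libraries, grey ticks without 1 of 5 libraries and orange diamonds without control replicate 3. The diamonds of Nfkb1, Tnfaip3 and Traf1 lie above 0, that of Bcl3 moves to -0.32, and the tick of Relb at 1.64 is without control replicate 2.

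Control replicate 3 was thus the highest of the 6 libraries for 4 of the 8 genes, against 17.3% of all tested rows, and these were Nfkb1, Bcl3, Traf1 and Tnfaip3. In the same library the 6 markers of natural killer cells, all matched, summed to 2733 CPM, against 296 and 257 CPM in the other controls and 63.3 to 149 CPM at 8 h. Klrb1c was at 0 in 8 h replicate 1, and no marker of that list was at 0 in every library. Most of the sum in control replicate 3 came from Nkg7 at 1685 CPM and Gzma at 922 CPM, granule genes that cytotoxic T cells also express. Nkg7, Gzma and Prf1 were highest in control replicate 3, Klrd1 and Klrb1c in control replicate 1 and Ncr1 in 8 h replicate 1, so 3 of the 6 markers did not follow the sum. The summed T cell markers stood at 18941 and 19584 CPM in control replicates 2 and 3, but a different gene made up most of each sum. Cd3d was at 14700 CPM in control replicate 2 and 1190 CPM in control replicate 3. Lck was at 44.9 and 14784 CPM in the same libraries, so the near-equal sums do not show equal T cell markers. The part of any of these in the NF-kB values was not tested.

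Summed over the 10 genes, the level was 147, 428 and 4267 CPM in controls and 133, 494 and 149 CPM at 8 h. Without Nfkb1 and Bcl3 the sums were 78.7, 356 and 237 CPM in controls and 92.0, 69.0 and 105 CPM at 8 h. The gene with the largest share also changed from library to library. Bcl3 led control replicate 1 with 36.0% of the sum, and Relb led control replicate 2 with 52.3% and 8 h replicate 3 with 47.9%. Nfkb1 led control replicate 3 with 72.0% and 8 h replicate 2 with 80.7%, and Nfkbib led 8 h replicate 1 with 33.4%.

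**Figure D5:**
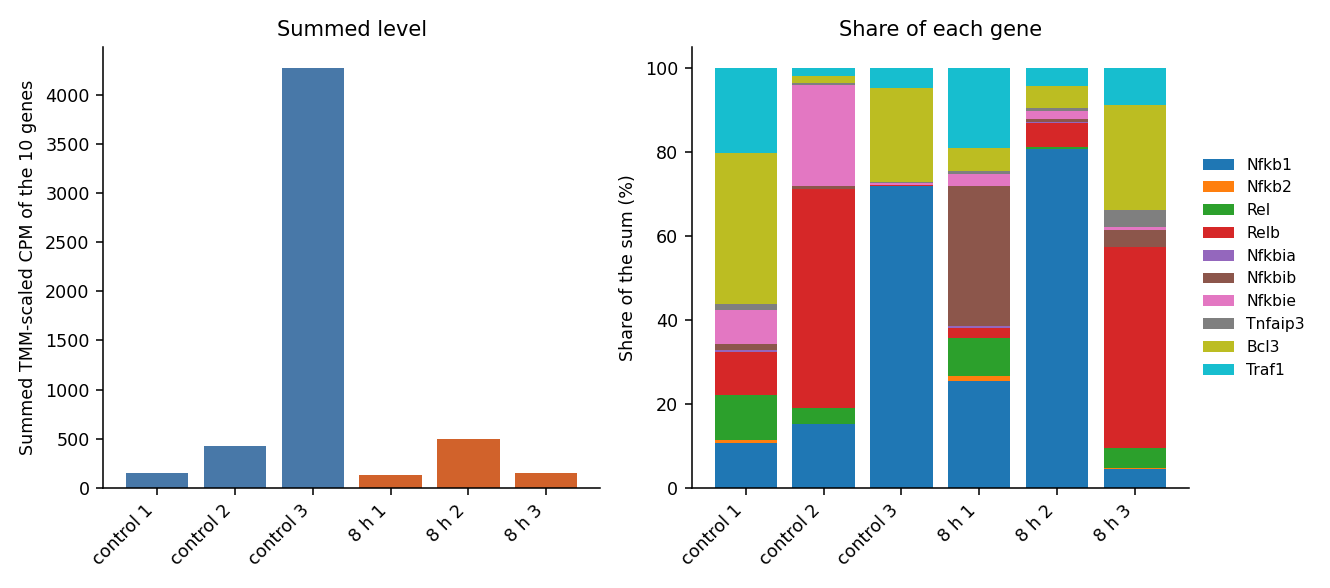
Left, summed TMM-scaled CPM of the 10 NF-kB genes per library. Right, the percent of that sum held by each gene. Control replicate 3 stands at 4267 CPM against 133 to 494 CPM in the other libraries, and Bcl3, Relb, Nfkb1 and Nfkbib each lead at least 1 library.

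To compare levels between genes, counts were taken per kilobase of the counted transcript and per scaled library size (RPKM, on the TMM scale). By the median over the 6 libraries the order was Bcl3 at 17.2 RPKM, Nfkb1 at 12.0, Traf1 at 9.94, Relb at 9.81, Nfkbie at 4.46, Nfkbib at 1.68, Rel at 1.28, Tnfaip3 at 0.612, Nfkbia at 0.213 and Nfkb2 at 0.187 RPKM. All neighbours in this order overlapped in their ranges. The range was 3.87 to 519 RPKM for Bcl3, 1.62 to 746 for Nfkb1 and 0.323 to 2.13 for Rel. Nfkbia never exceeded 0.453 RPKM, below the lowest library of Bcl3, Nfkb1, Traf1, Relb, Nfkbie and Nfkbib. On the longest annotated transcript the order was the same, with Relb at 6.60 and Traf1 at 6.73 RPKM.

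Likeness of pattern was measured as the mean absolute difference in centred log2(CPM + 1) over the 6 libraries, among 8006 tested rows with gene names, and is a description only. The closest to Nfkb1 was Ccl4, a chemokine, at 0.54, with 20, 200 and 11965 counts in the control libraries against 80, 726 and 19 at 8 h, followed by Aard at 0.62, where the median row was at 2.67. The closest to Bcl3 was Nkg7, a granule protein of natural killer and cytotoxic T cells, at 0.51, followed by Rnf44 at 0.58. Nkg7 had 657, 131 and 18478 counts in the control libraries against 90, 436 and 912 at 8 h. The closest to Nfkbib were Zfp821 (0.23) and Csf2 (0.24), and those to Nfkbie were Mdn1 (0.40) and Ascc1 (0.42). For Rel they were Il1rapl2 (0.19) and Trps1 (0.21), for Relb Sec23b (0.26) and Emd (0.34), for Tnfaip3 Stk17b (0.21) and Immp2l (0.24), and for Traf1 Bcl7b (0.28) and Nprl2 (0.32). None of the 8 had another NF-kB gene among its 2 closest rows. With so few NF-kB genes among 8006 rows this was nearly fixed in advance, so nothing is read from it. Within the group, the nearest pairs were Tnfaip3 with Traf1 at 0.92 and Bcl3 with Traf1 at 1.01. Among the named rows, Traf1 held rank 78 from Bcl3, and Bcl3 held rank 802 from Traf1. Traf1 held rank 1098 from Tnfaip3, and Tnfaip3 held rank 535 from Traf1.

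The rest of the pathway was read from 6 lists of 73 genes, of which 64 were matched and 47 tested. edgeR called 0 of them higher and 0 lower, and gave 2 (Lta and Ccnd1, both targets and both above 0) an unadjusted p under 0.05, where 8.53% of all tested rows had one. The fitted log2 fold change was above 0 for 27 and below 0 for 20, with a median of 0.32. Of 10 kinases of the IKK complex and the non-canonical arm 5 were tested, 2 above and 3 below 0. Of 6 genes of the T cell receptor arm 3 were tested, 1 above and 2 below. Receptor adaptors and ligases gave 3 above and 2 below of 5 tested, negative regulators 4 above and 6 below of 10 tested, and other subunits and atypical inhibitors 2 above and 1 below of 3 tested. Target genes in lymphocytes gave 15 above and 6 below of 21 tested, with a median of 0.98. Over all tested rows 48.7% lay below 0, with a median of 0.06. The median of the 8 NF-kB genes was opposite in sign at -1.62, but -0.12 without control replicate 3. How far single libraries set the median of the target genes was not examined. The difference in sign between the 2 medians was not tested.

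Values stood apart between the groups, with a mean of at least 5 CPM in the higher one, for 3 pathway genes, 1 higher and 2 lower at 8 h of the 47 tested. Over all tested rows 5.72% stood apart as higher and 5.08% as lower, so nothing particular to the pathway is read from this count. Vav1, an exchange factor downstream of the T cell receptor, had 1093, 166 and 103 control counts against 73, 115 and 19, a log2 fold change of -3.57 ± 1.90 (SE; edgeR adjusted p = 0.610). Tab1, a partner of the kinase TAK1 upstream of IKK, had 100, 39 and 276 counts against 46, 13 and 26, with a log2 fold change of -2.32 ± 1.74 (SE; edgeR adjusted p = 0.718). Il2, the T cell growth factor and a c-Rel target, went the other way at 3.4, 12.5 and 23.5 CPM against 73.5, 44.9 and 65.2 CPM (edgeR adjusted p = 0.745), in libraries where Rel had overlapping values. DESeq2 called 1 pathway gene, against 6.06% of all rows with an adjusted p. It was Lta, which encodes lymphotoxin alpha and was named after its values were seen. Lta had 14, 20 and 549 counts in the control libraries against 17266, 131 and 631 at 8 h, with overlapping groups, a DESeq2 adjusted p of 0.0416 and an edgeR adjusted p of 0.543.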

How the data were processed

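Per the labels' protocols, TruSeq libraries were read from 1 end over 50 bases. In the deposited table the authors gave whole-number read counts per RefSeq accession. The submitters' processing notes list Bowtie, R 3.4.2 and GRCm38 without saying what each was used for. Not given in the sources used here: the counting program, its use of strand and its treatment of shared reads. Symbols came from RefSeq GRCm38.p6 (12824 accessions) or GENCODE M21 (50), and 303 stayed unnamed.

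The whole table was fitted with edgeR 4.0.16 in R 4.3.3 (TMM, filterByExpr leaving 8308 rows, robust quasi-likelihood F test in its default form, two-sided, Benjamini-Hochberg over all tested rows, threshold 0.05). Each SE was obtained by dividing the size of the fold change (log2) by the root of F. DESeq2 1.42.0, limma-voom (limma 3.58.1), other scalings and filters, a replicate block and leaving out each library were alternatives. The fitting script was tested on simulated data, with a pass condition only at dispersions smaller than those estimated here. That run cannot show which changes could be detected in these data. RPKM used GENCODE transcript lengths.

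The 10 genes and all lists were chosen with earlier results of these data known. All 10 genes are named. Pathway genes are named where their groups do not overlap and the higher mean is at least 5 CPM, at most 8 of them, and 2 genes per tested NF-kB gene by likeness.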

Additional observations from a re-analysis of the deposited data

How the results depend on the processing

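The count of all genes called was 0 under every edgeR alternative and limma-voom, 0 to 0 without each replicate, and 399 with DESeq2's Wald test. At an unadjusted p under 0.05, over the same 8308 rows, the count was 709 in the reported fit and 403 with limma-voom. It was 267 with replicate number as a block and 1371 with DESeq2. With no filter on low counts it was 1250, but over 13177 rows, so that count is not set against the others. The cause of the differences over the 8308 rows was not tested. Counts of NF-kB genes called were 0 under all 14 alternatives. Pathway genes called numbered 0 except with DESeq2 (1). Over the 111 refitted fold changes of the 8 genes, 106 kept their direction and none passed the threshold, with adjusted p between 0.113 and 0.998. Without each replicate in turn, the log2 fold change of Nfkb1 lay between -5.73 (8 h replicate 2 left out) and 1.90 (control replicate 3 left out); it ran from -1.70 (8 h replicate 3) to 0.69 (control replicate 3) for Tnfaip3, from -2.53 (control replicate 2) to 0.077 (control replicate 3) for Traf1 and from -2.31 (8 h replicate 3) to 1.64 (control replicate 2) for Relb. NF-kB genes whose groups do not overlap numbered 2 with TMM or RLE scaling, 1 with unscaled library sizes (Nfkbie) and 2 to 4 without each replicate, with 4 (Bcl3, Traf1, Nfkbie and Nfkbib) without control replicate 2. Over all tested rows the share not overlapping was 10.8% with all libraries and 20.3% to 21.5% with 1 left out, so the rise in the count is not read as a result. With replicate number as a block, Nfkb1 turned to 0.19 and no call changed. Correlations of same-numbered libraries' deviations were -0.01, 0.02 and -0.00390, so the numbers were not taken as pairing the samples. With a mean of at least 5 CPM, Tnfaip3 was not tested. Nfkbia and Nfkb2 had too few counts to be tested.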

Other observations

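Some pathway genes, picked after their values were seen, differed widely between libraries of the same group. Ccnd1, a G1 cyclin, had 1949 counts in 8 h replicate 2 and 2 to 18 counts in each of the other libraries. Tnip1, a partner of A20, had 5087, 31 and 2212 counts in the control libraries against 30, 66 and 3044 at 8 h, with Tnfaip3, which encodes A20, at 12, 10 and 177 against 8, 42 and 40 counts. Otulin, a deubiquitinase of linear ubiquitin chains, had 1485, 34 and 1491 counts in the control libraries against 63, 351 and 32 at 8 h (edgeR adjusted p = 0.621). Irf1, an interferon regulatory factor, had 23233 counts in 8 h replicate 2 and 55 to 2634 counts in each of the others.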
